A study of Homo sapiens with 6 samples.

Results

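A set of 10 genes of the replication fork were followed across 6 Human Exon 1.0 ST arrays, namely GINS1, GINS2, GINS3, GINS4, CDC45, RFC1, RFC2, RFC3, RFC4 and RFC5. They were chosen by name, as the probe sets whose single gene symbol in the platform annotation was one of these, with CDC45 listed there under its older symbol CDC45L. The names were picked with earlier results of these data known, so the shares of all genes given beside them are descriptive. All 10 were measured among 17841 genes, on 167 of 1411399 probe sets, of which 156 passed the signal filter described with the processing. RNA came from HCT116, a human colorectal carcinoma cell line that the titles call HCT116 +/+. The groups were 2 arrays after Nutlin-3 (Nutlin 3R in the labels), 2 after 5-fluorouracil (5FU) and 2 controls (treatment none in the labels, DMSO in the design text), all at 12 h, with no dose given in the sources used here. By its title the study is about genes that are synthetic lethal with Nutlin-3, and the question here is what each drug did to these transcripts. All groups are 1 cell line, and whether replicates came from different cultures is not stated, so p-values measure only the spread between these arrays, which may be technical.

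GINS is a ring-like complex of its 4 subunits that joins CDC45 and the MCM ring at a licensed origin to form the active replicative helicase, known as CMG. The clamp loader, replication factor C, uses ATP to open the PCNA clamp and place it on primed DNA, where it holds the polymerase. RFC1 is its large subunit and RFC2 to RFC5 are its small subunits, which also serve in loaders built on other large subunits. Nutlin-3 keeps MDM2 from binding p53 and so stabilises p53. 5FU gives rise to metabolites that inhibit thymidylate synthase and enter RNA and DNA. Genes of S phase are widely known to carry sites for E2F transcription factors near their starts.

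The promoter windows of 4 members are shown because they hold letters searched here as an E2F site within 60 bases of the start. Other forms of the site were not searched, so the other members may hold them. Each window runs from 250 bases before to 50 bases after a RefSeq gene start (assembly GRCh38.p14), 5′ to 3′ on the gene's strand, and capitals mark the match. The letters searched on both strands were TTTCCCGC, TTTCGCGC, TTTGCCGC and TTTGGCGC, and all 4 matches lay on the opposite strand, so they read as the reverse complement here. The windows are chr20:25407423-25407722 on the plus strand for GINS1, chr16:85688905-85689204 on the minus strand for GINS2, chr16:58392221-58392520 on the plus strand for GINS3 and chr13:33817899-33818198 on the plus strand for RFC3.
GINS1: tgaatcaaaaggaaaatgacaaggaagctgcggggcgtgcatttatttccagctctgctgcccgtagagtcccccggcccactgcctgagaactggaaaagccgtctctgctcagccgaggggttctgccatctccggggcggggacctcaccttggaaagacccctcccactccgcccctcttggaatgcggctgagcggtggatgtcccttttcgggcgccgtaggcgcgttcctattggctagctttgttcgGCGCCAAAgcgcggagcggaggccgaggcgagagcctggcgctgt
GINS2: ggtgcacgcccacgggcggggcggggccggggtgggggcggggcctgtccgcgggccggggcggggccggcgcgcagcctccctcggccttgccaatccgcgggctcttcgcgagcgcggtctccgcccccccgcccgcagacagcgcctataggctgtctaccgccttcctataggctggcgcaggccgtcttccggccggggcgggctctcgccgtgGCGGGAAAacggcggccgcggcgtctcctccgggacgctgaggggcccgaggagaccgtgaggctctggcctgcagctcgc
GINS3: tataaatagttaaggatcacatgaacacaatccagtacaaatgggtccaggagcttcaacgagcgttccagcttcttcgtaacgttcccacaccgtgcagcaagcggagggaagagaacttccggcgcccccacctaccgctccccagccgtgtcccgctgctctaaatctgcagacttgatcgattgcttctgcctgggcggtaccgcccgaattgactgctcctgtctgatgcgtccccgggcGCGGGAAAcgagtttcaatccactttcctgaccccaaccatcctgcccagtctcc
RFC3: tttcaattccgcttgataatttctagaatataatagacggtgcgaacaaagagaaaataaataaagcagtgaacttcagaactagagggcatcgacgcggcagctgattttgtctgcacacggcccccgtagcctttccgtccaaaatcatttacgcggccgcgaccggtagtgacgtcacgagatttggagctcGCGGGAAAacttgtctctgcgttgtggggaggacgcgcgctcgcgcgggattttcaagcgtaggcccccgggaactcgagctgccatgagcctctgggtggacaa

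Windows were matched for 9 of the 10 genes, all but GINS4, and CDC45 had 3 windows, of which 2 overlap. E2F letters were found in 4 of these 9 genes. By window that was 4 of 11, against 3.31% of 35116 RefSeq promoter windows of the same length. The match spanned positions 6 to 13 from the start in GINS1, -31 to -24 in GINS2, -5 to 3 in GINS3 and -55 to -48 in RFC3. CCAAT on either strand was found in 5 of the 9 genes (GINS1, GINS2, CDC45, RFC1 and RFC5). It lay in 6 of the 11 member windows, against 34.6% of all windows. One CDC45 window held it 4 times. The CHR element, searched as TTTGAA and TTCGAA, was found in 0 of the 11 member windows, against 16.4% of all windows. These matches describe letters in the windows and were not measured for binding.

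After Nutlin-3 all 10 genes were lower than in control, and 7 of them passed the test. A gene's value is an average, on the log2 scale, over its probe sets above the filter, and the test was limma fitted across all genes with Benjamini-Hochberg adjustment, called at an adjusted p below 0.05. GINS1, GINS2, GINS3, CDC45, RFC3, RFC4 and RFC5 fell, between 2.12-fold (GINS3) and 2.92-fold (RFC4). GINS4, RFC1 and RFC2 had values below control that missed the threshold. Over all genes, 0.858% were called lower and 49.9% had a log2 difference below 0. The median log2 difference of the 10 was -1.30, against 0.00062 for all genes. Each array averages over a culture, so fewer cells with a transcript and less of it per cell cannot be told apart.

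**Figure D1:**
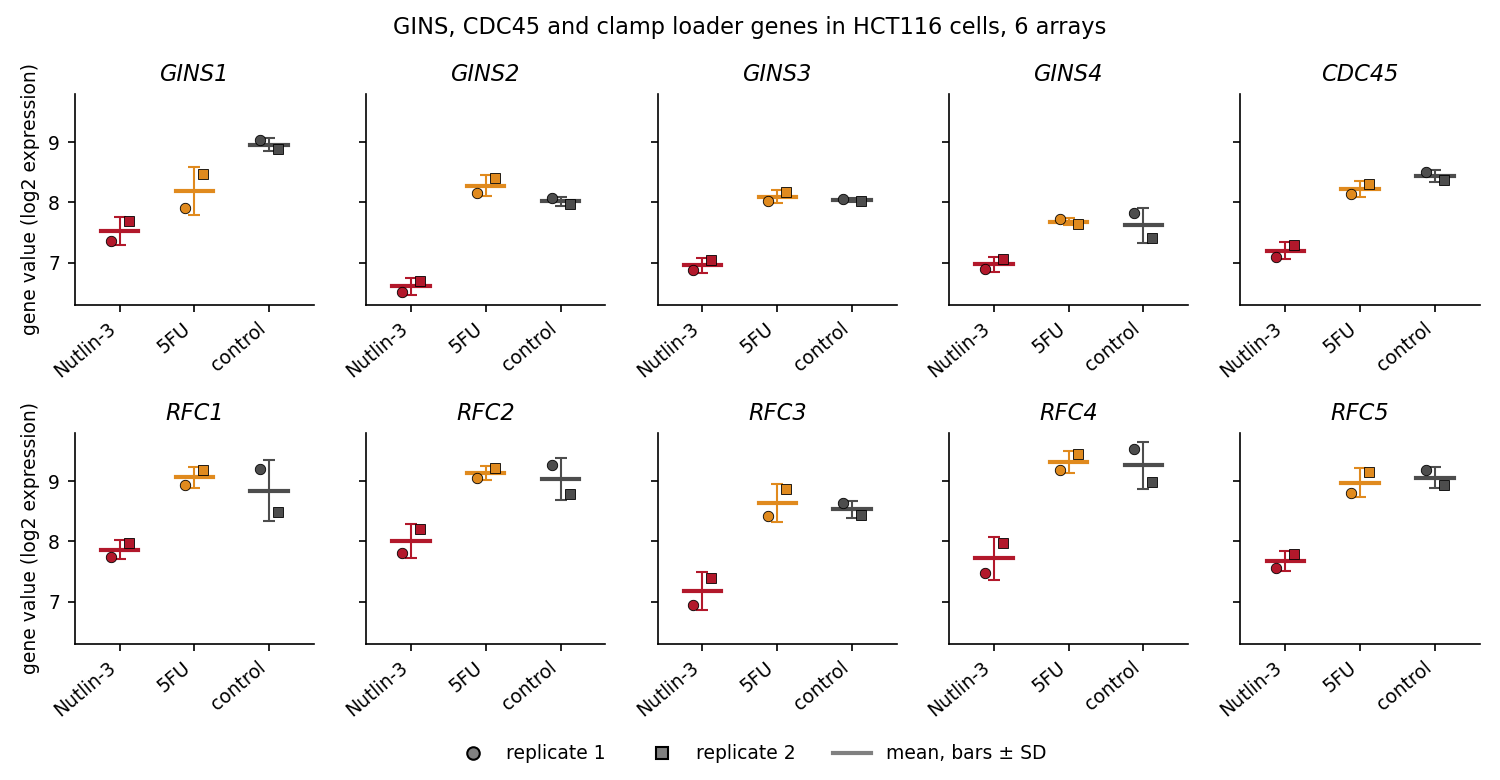
Gene values (log2 expression, vertical axis) of the 10 genes on each array, by group, with the mean as a line and bars of ± SD (n = 2). Panels compare groups within a gene, not genes with each other. Both Nutlin-3 arrays lie below both 5FU arrays and both control arrays in all 10 panels.

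Among the helicase factors, GINS1 (also known as PSF1) read 7.36 and 7.69 on the Nutlin-3 arrays, 7.90 and 8.47 on the 5FU arrays, and 9.04 and 8.88 on the control arrays. The 3 groups did not overlap, with Nutlin-3 lowest and 5FU between. Against control, GINS1 fell by 1.44 on the log2 scale after Nutlin-3 (SE 0.22, 2.71-fold, limma adjusted p = 0.0338). With the median over its probe sets in place of the mean the difference was -0.62 and was not called (limma adjusted p = 0.427). That median is taken on each array and fell on different probe sets. GINS2 (PSF2), another subunit of the complex, read 6.50 and 6.70 with Nutlin-3, 8.16 and 8.40 with 5FU, and 8.07 and 7.97 in control. It fell by 1.42 after Nutlin-3 (SE 0.15, 2.67-fold, adjusted p = 0.0128), and both Nutlin-3 arrays lay well below the other 4, among which 5FU was the higher pair. GINS3 (PSF3) read 6.87 and 7.04 with Nutlin-3, 8.02 and 8.17 with 5FU, and 8.06 and 8.02 in control. Its replicates were the closest of the 10 in control, 0.039 apart. GINS3 fell by 1.09 after Nutlin-3 (SE 0.14, 2.12-fold, adjusted p = 0.0195).

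GINS4 (SLD5) had the smallest log2 difference of the 10 after Nutlin-3, -0.65 (SE 0.17, 95% interval -1.05 to -0.24, limma adjusted p = 0.194). Its values were 6.88 and 7.05 with Nutlin-3, 7.72 and 7.64 with 5FU, and 7.82 and 7.41 in control. Nutlin-3 and control did not overlap, with 0.36 between the lower control array and the higher Nutlin-3 array, while both 5FU arrays lay within the range of control. CDC45, the factor that GINS holds on the MCM ring, read 7.09 and 7.30 with Nutlin-3, 8.13 and 8.31 with 5FU, and 8.51 and 8.37 in control. It fell by 1.25 after Nutlin-3 (SE 0.15, 2.37-fold, adjusted p = 0.0158), and its lower control array stood 1.08 above its higher Nutlin-3 array.

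In the clamp loader, RFC1, the large subunit, read 7.75 and 7.98 with Nutlin-3, 8.94 and 9.19 with 5FU, and 9.20 and 8.49 in control. Its control arrays were 0.71 apart, the widest replicate gap of the 10 genes. The log2 difference of Nutlin-3 from control was -0.98 (SE 0.24, 95% interval -1.56 to -0.41, limma adjusted p = 0.16). RFC2, a small subunit, read 7.81 and 8.21 with Nutlin-3, 9.06 and 9.22 with 5FU, and 9.28 and 8.79 in control, a difference of Nutlin-3 from control of -1.03 (SE 0.21, 95% interval -1.53 to -0.52, adjusted p = 0.0952). Neither passed, although their Nutlin-3 arrays lay wholly below control.

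RFC3, RFC4 and RFC5 are the small subunits that passed. RFC3 read 6.95 and 7.40 with Nutlin-3, 8.42 and 8.87 with 5FU, and 8.63 and 8.44 in control, and fell by 1.36 (SE 0.22, 2.57-fold, limma adjusted p = 0.0386). RFC4 read 7.47 and 7.97 with Nutlin-3, 9.19 and 9.45 with 5FU, and 9.54 and 8.99 in control. It fell by 1.55, the most of the 10 (SE 0.24, 2.92-fold, adjusted p = 0.0375), and ranked 78 from the lowest log2 difference among 17841 genes. RFC5 read 7.56 and 7.79 with Nutlin-3, 8.81 and 9.15 with 5FU, and 9.18 and 8.94 in control. It fell by 1.39 (SE 0.18, 2.61-fold, adjusted p = 0.0199), with 1.15 between the lower control array and the higher Nutlin-3 array.

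Both Nutlin-3 arrays lay below both control arrays in all 10 genes, so leaving out 1 array could not change the direction. Leaving out a 5FU array does not touch the difference of Nutlin-3 from control, only the estimate of the spread. The calls did depend on single arrays, in the members and over all genes, with counts in the closing section. Without 1 array all 10 stayed lower after Nutlin-3, with a member median between -1.42 and -1.14. With all probe sets of a gene GINS1 and RFC3 were not called, and with the median over probe sets GINS1, RFC3 and RFC4 were not. Replicates also differed in a shared way. All 10 genes were lower in Nutlin-3 replicate 1 than in Nutlin-3 replicate 2 (median -0.23, against -0.073 over all genes). In 5FU replicate 1 they were lower than in 5FU replicate 2 in 9 of 10, with GINS4 the exception (median -0.25, against -0.062 over all genes). All 10 were higher in control replicate 1 than in control replicate 2 (median 0.22, against 0.019 over all genes). The part of this replicate pattern in the calls was not tested. Groups did not overlap and Nutlin-3 was lower in 10 of 10 genes, against 18% of all genes.

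After 5FU none of the 10 passed the test against control. Limma called 0 of 10, against 0.448% of all genes, and 1 of 10, GINS1, had an unadjusted p below 0.05, against 10.7% of all genes. Of the 10, 3 had a log2 difference below 0, against 49.7% of all genes, and the member median was 0.059. GINS1 was apart from the rest with a log2 difference of -0.77 (SE 0.22, 95% interval -1.29 to -0.26, adjusted p = 0.26), and its groups did not overlap. Between them lay a gap of 0.41, and without 5FU replicate 1 or 5FU replicate 2 its difference was -0.49 or -1.06. CDC45 also had both 5FU arrays below both control arrays, by a gap of 0.063, at -0.22 (SE 0.15, 95% interval -0.57 to 0.13, adjusted p = 0.727). GINS2 had both 5FU arrays above both control arrays, at 0.26 (SE 0.15, 95% interval -0.10 to 0.62, adjusted p = 0.653). Non-overlap with 5FU lower was seen in 2 of 10 genes, against 18% of all genes, and with 5FU higher in 1 of 10, against 20%.

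The remaining 7 genes overlapped between 5FU and control. Their log2 differences ran from -0.080 in RFC5 to 0.22 in RFC1. Across them the 95% intervals reached down to -0.52 (RFC4) and up to 0.80 (RFC1). Signs of such small differences depended on single arrays. Without control replicate 2, 7 of 10 members were below control and the member median was -0.14. Without control replicate 1, 2 of 10 were below and the median was 0.24.

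**Figure D2:**
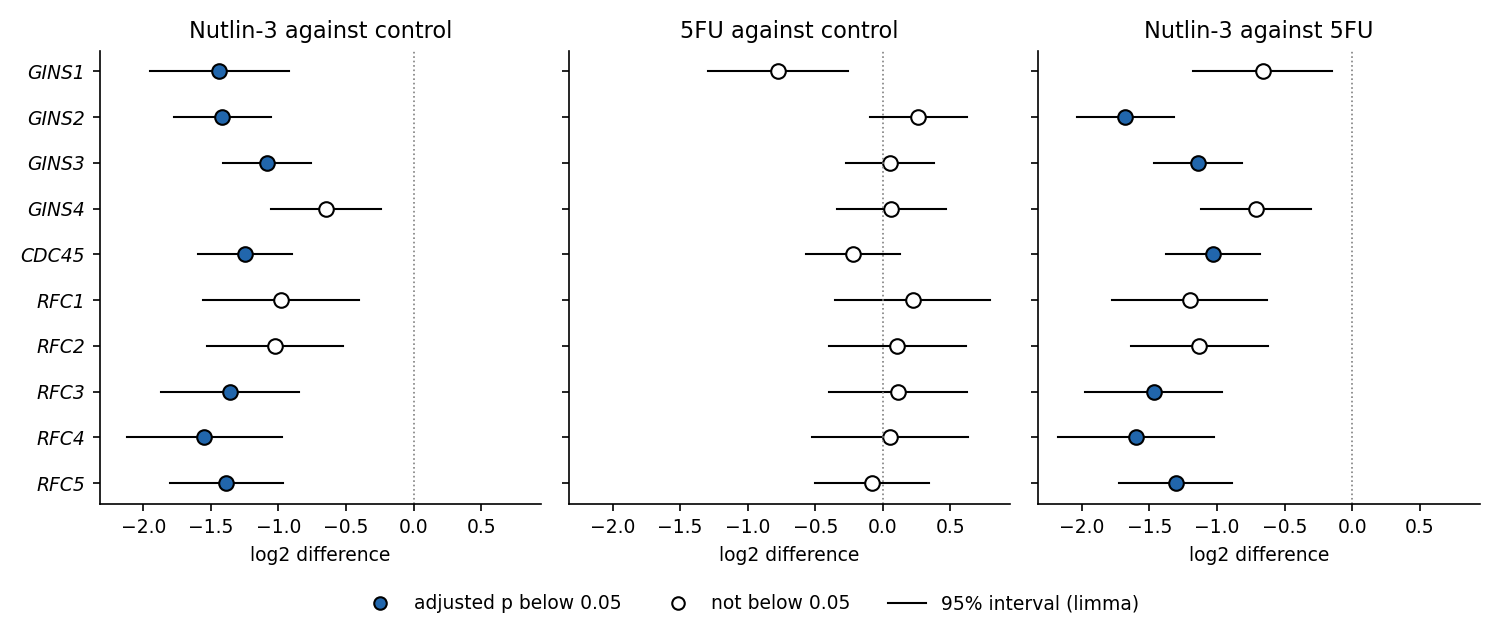
Log2 differences (horizontal axis) of the 10 genes in the 3 comparisons, with 95% limma intervals, filled where the adjusted p was below 0.05. After Nutlin-3 all points lie left of 0 against control and against 5FU, while after 5FU GINS1 stands at -0.77 and the rest lie between -0.22 and 0.26.

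Set directly against 5FU, Nutlin-3 gave lower values of all 10 genes, and 6 passed. These were GINS2, GINS3, CDC45, RFC3, RFC4 and RFC5, against 0.572% of all genes called lower and 50.8% with a log2 difference below 0. Both comparisons with control share the control arrays, so this comparison, which does not use them for its means, is the test of the difference between the drugs. GINS2 had the largest difference, at -1.68 (SE 0.15, 3.2-fold, limma adjusted p = 0.0114). RFC4 differed by -1.60 (SE 0.24, 3.03-fold, adjusted p = 0.0499), a value at the threshold, and RFC3 by -1.47 (SE 0.22, 2.77-fold, adjusted p = 0.0445). RFC5 differed by -1.31 (SE 0.18, 2.47-fold, adjusted p = 0.0383), GINS3 by -1.14 (SE 0.14, 2.21-fold, adjusted p = 0.0293) and CDC45 by -1.03 (SE 0.15, 2.04-fold, adjusted p = 0.0435).

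The other 4 genes missed the threshold between the drugs. RFC1 differed by -1.20 (SE 0.24, adjusted p = 0.101), RFC2 by -1.13 (SE 0.21, adjusted p = 0.0882), GINS4 by -0.71 (SE 0.17, adjusted p = 0.148) and GINS1 by -0.66 (SE 0.22, adjusted p = 0.267). For GINS1 the value depended on how its probe sets were summarised, since the median over its probe sets gave 0.051. That median is taken on each array and fell on different probe sets. Taken singly, 8 of its 9 probe sets were below 5FU, 7 without overlap, with a median difference of -0.74. The 2 drugs' arrays did not overlap in 10 of 10 genes, against 25.2% of all genes with Nutlin-3 lower. The narrowest gap was that of GINS1, 0.21 between its lower 5FU array and its higher Nutlin-3 array, and the widest was that of GINS2, 1.46. Calls between the drugs depended on single arrays too, in the members and over all genes. Without 1 array the member median lay between -1.32 and -1.07.

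Exon arrays carry several probe sets per gene, which target different stretches of the transcript and allow a look inside each gene. Probe sets of a gene share the same RNA and are not replicates. Of the 156 used, 138 (88.5%) had both Nutlin-3 arrays below both control arrays and 4 (2.56%) above, against 15% and 17.2% of 705699 probe sets above the filter. None of the 705699 was called singly by limma for Nutlin-3 against control (0, with 43352 at an unadjusted p below 0.05). In GINS1 all 9 used probe sets were lower without overlap, with a median of -1.58. In RFC4 it was 13 of 14 (median -1.75), in RFC5 15 of 16 (median -1.48), in RFC3 14 of 15 (median -1.52) and in CDC45 21 of 23 (median -1.27). GINS4 had 9 of 10, and its probe sets lay close together, between -0.81 and -0.23.

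The exceptions were few and differed in brightness. In GINS2, 10 of 13 probe sets were lower without overlap, down to -2.80, and the other 3 lay between 0.071 and 0.39. Probe sets of GINS2 thus lay on both sides of 0 around a gene average of -1.42. Those lower include probe sets 3905440 and 3905444, numbered apart from the rest of GINS2 (3703114 to 3703126). Their place in the genome was not checked. RFC2 had 12 of 15 lower without overlap. Its remaining 3 included the brightest used probe set of the gene, with a mean of 11.2 over the 6 arrays and a difference of 0.14. RFC4 had 1 probe set that went the other way without overlap, at 0.68. Its mean of 6.25 was the lowest of the used probe sets of RFC4, yet above the signal filter of 4.73. RFC1 had 26 of 30 lower without overlap and GINS3 9 of 11.

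After 5FU the probe sets of a gene agreed in sign in GINS1 alone of the 10. All 9 used probe sets of GINS1 were below control, between -1.002 and -0.53, and 6 of them without overlap. In CDC45, 20 of 23 were below control (median -0.24), and 12 without overlap. In GINS2, 12 of 13 were not below control, 6 of them higher without overlap (median 0.25). RFC5 had 7 of 16 lower without overlap and a median of -0.19. Over the 156 probe sets 19.9% were lower and 15.4% higher without overlap, against 17.6% for each direction among all probe sets above the filter.

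**Figure D3:**
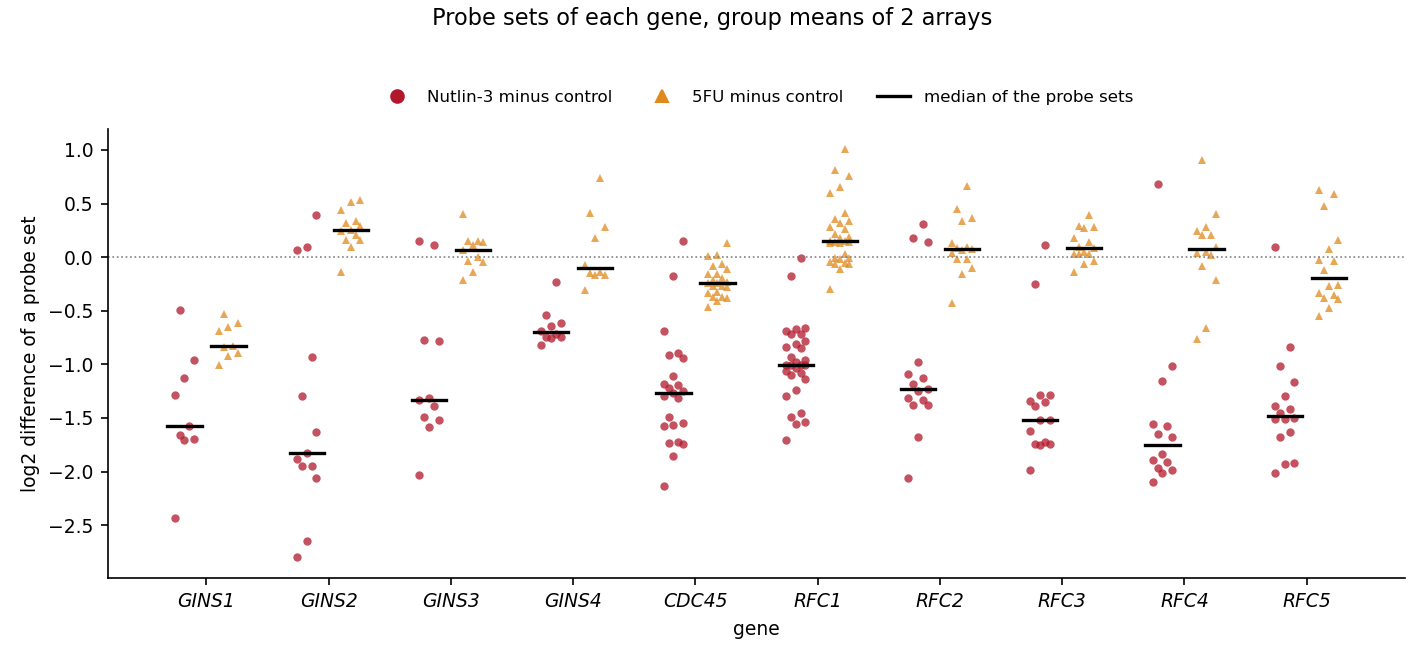
Log2 difference from control (vertical axis) of each used probe set of the 10 genes after Nutlin-3 (circles) and 5FU (triangles), from group means of 2 arrays, with black lines at the medians. Nutlin-3 medians lie between -1.83 (GINS2) and -0.70 (GINS4), and only GINS1 has all 5FU points below 0.

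Partners at the fork were read from 6 lists of 55 genes, all of which were measured. After Nutlin-3, 17 of 55 fell and 0 rose, with a median log2 difference of -1.03, against 0.858% of all genes called lower. After 5FU, limma called 0 of 55, against 0.448% of all genes, and 2 had an unadjusted p below 0.05, against 10.7%. The median was -0.00053, against 0.0014 for all genes. In the MCM core, the motor that GINS and CDC45 activate, 3 of 6 fell, namely MCM3 (2.68-fold), MCM2 (2.54-fold) and MCM5 (2-fold). In origin licensing and CMG assembly 6 of 17 fell, the largest being MCM10 (5.68-fold), the licensing ATPase CDC6 (4.77-fold), TICRR, which helps bring CDC45 to origins (4.57-fold), and ORC1 of the origin recognition complex (3.91-fold). CLSPN (5.12-fold) and WDHD1 (3.06-fold), which link helicase, polymerases and checkpoint signalling, were 2 of 4 replisome linkers that fell. Among polymerases, primase and clamp 3 of 13 fell, POLD3 (3.73-fold), PRIM1 (2.98-fold) and POLE (1.88-fold). For Okazaki fragments and RPA it was 2 of 7, the nucleases FEN1 (2.45-fold) and DNA2 (2.38-fold).

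Between the drugs directly, 14 of these 55 genes were called, all lower after Nutlin-3, against 0.572% of all genes called lower. The largest difference in each list was CDC6 (5.38-fold), CLSPN (5.38-fold), ATAD5 (4.32-fold), POLD3 (3.52-fold), FEN1 (2.83-fold) and MCM2 (2.5-fold). GMNN, which restrains licensing through CDT1, was among the called genes of origin licensing (3.08-fold), with a limma adjusted p of 0.0439. The median over the 55 was -0.89, against -0.0052 over all genes.

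RFC2 to RFC5 also work with other large subunits, whose differences from each other were not tested. ATAD5, whose loader takes PCNA off DNA, averaged 4.89 ± 0.43 with Nutlin-3, 7.004 ± 0.36 with 5FU and 7.005 ± 0.27 in control (SD, n = 2 each). It fell 4.32-fold after Nutlin-3 (limma adjusted p = 0.019), to a level near the signal filter of 4.73, so that the fold is less certain. RAD17, the large subunit that loads the 9-1-1 checkpoint clamp, averaged 7.92 ± 0.26 with Nutlin-3, 7.70 ± 0.26 with 5FU and 7.81 ± 0.58 in control (SD, n = 2 each), a log2 difference from control of 0.11 after Nutlin-3 (SE 0.29, adjusted p = 0.962). CHTF18, the large subunit of the loader tied to sister chromatid cohesion, differed by -0.21 (SE 0.13, adjusted p = 0.707), and its partner DSCC1 by -1.71 (SE 0.32, adjusted p = 0.0658). Of this list, which includes the 9-1-1 clamp, 1 of 8 was called, against 0.858% of all genes called lower, with a median of -0.28. RAD9A, HUS1 and RAD1, the subunits of that clamp, differed by -0.13, 0.016 and -0.82, and none passed.

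**Figure D4:**
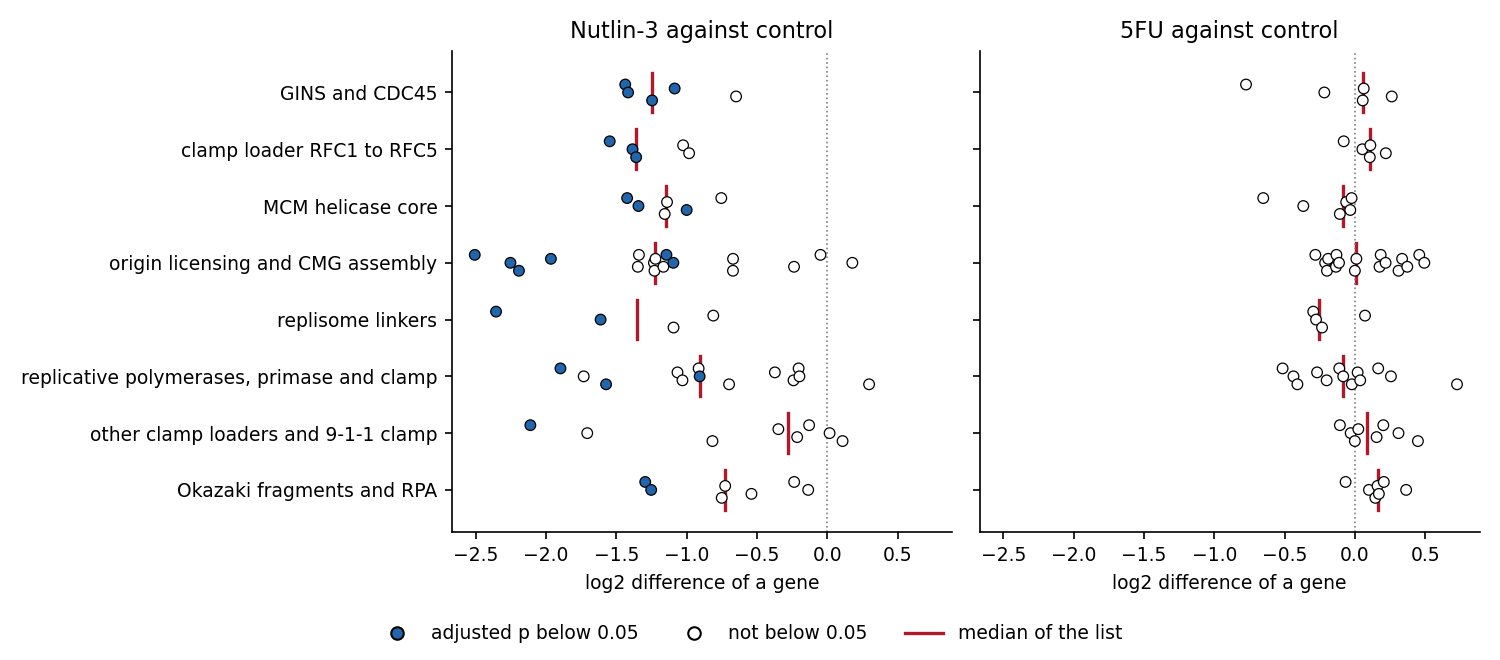
Log2 differences from control (horizontal axis) of single genes, by list, after Nutlin-3 (left) and 5FU (right), filled where the adjusted p was below 0.05, with list medians in red. Nutlin-3 medians run from -1.36 for the clamp loader to -0.28 for the other clamp loaders with the 9-1-1 clamp, and no point is filled after 5FU.

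The genes whose centred values over the 6 arrays lay nearest to the members' average were sought among 8740 others with at least 3 probe sets and above-median level, by root mean square distance. Nearest to GINS and CDC45 were ZWINT (0.062), CKLF (0.067), WEE1 (0.072), FANCA (0.077) and POLA2 (0.089). Nearest to the clamp loader were UBE2T (0.072), DONSON (0.078), CENPO (0.090), EZH2 (0.094) and UBR7 (0.095). Since the members' average is lower after Nutlin-3 and not after 5FU, this choice fixes the same pattern in these genes, and nothing is read from their calls.

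Drug labels and cell type were checked on other genes. CDKN1A, a p53 target that encodes the inhibitor p21, averaged 10.39 ± 0.00031 with Nutlin-3, 10.07 ± 0.068 with 5FU and 8.29 ± 0.035 in control (SD, n = 2 each). MDM2, another p53 target, averaged 10.46 ± 0.29 with Nutlin-3, 10.17 ± 0.19 with 5FU and 8.61 ± 0.054 in control. Both rose with both drugs in limma, so they set treated arrays apart from control but cannot tell the drugs from each other. Averaged over all their probe sets, the epithelial genes differed widely in level. The keratins KRT8 and KRT18 lay between 10.9 and 11.3 on every array, KRT19 between 9.26 and 10.08 and EPCAM between 8.71 and 9.54. CDH1 lay between 7.25 and 7.72 and ELF3 between 6.29 and 7.15. The fibroblast genes COL1A2 and COL3A1 lay between 5.40 and 5.93. Over probe sets above the filter, ELF3 averaged 6.81, near COL1A2 at 6.77 and COL3A1 at 6.73. Probe sets above the filter numbered 46 of 66 for COL1A2, 43 of 66 for COL3A1, 4 of 19 for DCN and 0 of 10 for LUM among fibroblast genes. Among blood genes they were 5 of 47 for PTPRC, 5 of 10 for CD3E, 4 of 7 for CD14 and 5 of 9 for HBB. None of the 13 measured epithelial, fibroblast and blood markers was called in any comparison by limma, and at most 3 of them had an unadjusted p below 0.05 in one. Correlations between arrays over genes were 0.967 within Nutlin-3, 0.981 within 5FU and 0.963 within control, against a range of 0.92 to 0.981 over all pairs, these included. Replicates were not always the closest pair, as control replicate 1 correlated at 0.970 with 5FU replicate 2.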

How the data were processed

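Expression was measured on 6 Affymetrix arrays, 2 per group. The authors deposited log2 expression values per probe set, made with RMA per the submitters' processing notes, with version and settings not given in the sources used here. RMA is a procedure that subtracts background, brings arrays to a common distribution and combines probes. Array medians lay between 4.73 and 4.78. No depth applies, and precision is limited by having 2 arrays a group.

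Probe sets with 1 gene symbol (357604) were named through the platform annotation, with old symbols updated through RefSeq synonyms. A probe set was used where its 6-array mean was above 4.73, the median of such means over the table, and a gene needed 2 or more used probe sets, whose mean was its value. Groups were fitted in 1 model with limma 3.58.1 (lmFit, eBayes) in R 4.3.3, with Benjamini-Hochberg adjustment over 17841 genes, after a test on simulated data. A second run of it took each of 705699 probe sets singly. For 1 gene, exact two-sided permutation of 2 arrays against 2 gives no p below 0.333.

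Members and lists were chosen with earlier results of these data known. Genes named were the members, up to 4 called genes of each list per comparison with the largest change, CDKN1A, MDM2 and the 5 nearest profiles to GINS with CDC45 and to the clamp loader. Other genes of the list of other clamp loaders, and GMNN, were named after their values were seen. Alternatives covered probe-set choice and summary, variance model, scaling, samples, block and single arrays. Replicate numbers were not taken as pairs.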

Additional observations from a re-analysis of the deposited data

How the results depend on the processing

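All 10 members stayed lower after Nutlin-3 than in control in each of the 16 alternatives run. Most of these could not change that direction. They kept the members' values, or left out 1 array from groups that did not overlap. Those that could were all probe sets, upper-quartile probe sets, the median over probe sets and centred arrays. How many genes and members were called depended on the settings, and the cause was not tested. For Nutlin-3 against control, 217 genes were called, against 380 with upper-quartile probe sets, 381 with arrays centred on medians and 2 with the replicate block. Without 1 array there were 5 to 149. The 7 members called became 4 with the median over probe sets (GINS2, GINS3, CDC45 and RFC5), 0 with the replicate block, and 0 to 6 without 1 array. For 5FU against control, 80 genes were called, against 151 with upper-quartile probe sets, 39 with the median over probe sets, 177 with centred arrays, 1 with the replicate block and 1 to 63 without 1 array. For Nutlin-3 against 5FU, 113 genes were called, against 69 with all probe sets of a gene, 234 with upper-quartile probe sets, 69 with the median over probe sets, 297 with centred arrays, 0 with the replicate block (limma, 1821 at an unadjusted p below 0.05) and 3 to 104 without 1 array. The 6 members called became 3 with all probe sets, 0 with the replicate block, and 0 to 5 without 1 array. Deviations of same-numbered arrays from their group means correlated at -0.565 between Nutlin-3 and control, -0.525 between 5FU and control and 0.634 between the drugs. With the control numbers turned, a pairing chosen after the data were seen, 1788, 1882 and 2821 genes and 10, 1 and 10 members were called.

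Small differences after 5FU changed sign. GINS3 was -0.0063 with all probe sets, and GINS4 was -0.065 with upper-quartile probe sets and -0.068 with the median over probe sets. Without 1 array the differences from control ran from -0.022 to 0.13 in GINS3, -0.14 to 0.27 in GINS4, -0.14 to 0.58 in RFC1, -0.14 to 0.35 in RFC2, -0.11 to 0.33 in RFC3, -0.22 to 0.33 in RFC4 and -0.25 to 0.089 in RFC5. GINS1 was 0.051 in Nutlin-3 against 5FU with the median over probe sets. In fits that left 1 array in a group, that array was assumed to vary like the others.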
